A study of Mus musculus with 10 samples.

Results

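Genes of cholesterol and fatty acid synthesis, with the genes that control them and 2 transporters that export sterol from cells, were followed in B16 tumors of C57BL/6 mice. B16 is a transplantable melanoma line. The 30 genes are a list of names drawn up with earlier results of these data known, and all 30 were measured among the 18193 genes of the array table. They comprised 16 enzymes of sterol synthesis, 4 regulators, 8 enzymes of fatty acid synthesis and desaturation, and 2 efflux transporters. Tumors labelled wild type (5 arrays) were compared with tumors labelled Bach2-deficient (5 arrays); the background strain was C57BL/6 in both. Bach2 encodes a transcriptional repressor of lymphocytes. The labels name no further allele or treatment, and give neither age nor sex. They do not state which cells lacked Bach2, which part of the gene was removed, or if each tumor grew in its own animal, so the p-values below reflect the spread between samples, which may be technical. RNA of whole dissociated tumors was hybridised, so in all that follows fewer cells of a type and less RNA per cell cannot be told apart.

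Cells make cholesterol from acetyl-CoA through the mevalonate pathway, and long fatty acids from malonyl-CoA. Both pathways are driven by the membrane-bound factors SREBP-1 and SREBP-2 (Srebf1 and Srebf2), which the INSIG proteins hold in the endoplasmic reticulum with their escort SCAP when sterols are plentiful. Oxysterols, which are oxidised forms of cholesterol, bind INSIG proteins and also activate the liver X receptors, nuclear receptors that induce Abca1, Abcg1 and Srebf1. Melanoma cells, macrophages and lymphocytes all use these pathways.

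The tumors carried the melanocyte genes of their labelled origin, with Dct, an enzyme of pigment synthesis, at 13.54 and 13.21 (log2 means of wild type and Bach2-deficient) and Mlana, a melanosome protein gene, at 13.45 and 13.17. The probe set that stands for Bach2 changed by -1.07 (limma adjusted p = 0.0551) and did not pass the threshold of 0.05; the groups overlapped, from 5.93 to 7.78 in wild type and from 4.96 to 6.37 in tumors labelled Bach2-deficient. Precision is limited by having 5 arrays a group. Xist, an RNA of female cells, read at least 11.36 on the wild-type arrays and on Bach2-deficient replicate 2 (11.86), and between 4.76 and 6.61 on the other Bach2-deficient arrays. Poly-A spike controls, bacterial RNAs added before labelling, differed by -2.09 between the groups without overlap. Hybridization controls differed by -0.64, also without overlap (11.96 to 12.64 in wild type and 11.55 to 11.88 in Bach2-deficient). The part of these 2 kinds of control in any result below was not tested. A term for Xist is used below, but only replicate 2 of the Bach2-deficient group read high. The part of Xist could therefore not be tested.

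Desaturase and elongase genes and a part of sterol synthesis fell in the Bach2-deficient tumors, and the efflux transporter gene Abcg1 rose. Of the 30 genes, 12 fell and 3 rose (limma, Benjamini-Hochberg adjusted p under 0.05 over all genes), with a median log2 change of -0.36. These 15 calls compare with 28.7% of all genes passing in either direction. The fallen genes made up 40% of the list, while 12.4% of all genes fell. Those that rose made up 10%, against 16.3% of all genes, and the median change of all genes was -0.06. Fatty acid enzymes had the lowest median of the 3 larger roles (-0.69), sterol enzymes lay at -0.36 and the regulators at -0.23. In 8 of the 30 genes every Bach2-deficient array lay below every wild-type array, which held for 7.67% of all genes, and in 1 gene (Srebf1) every one lay above, against 11.2%.

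These counts moved with the scale and the fit. Over all genes 2962 rose and 2264 fell as deposited, 2288 rose and 4816 fell when arrays were centred on their median again, and 4742 rose and 714 fell when they were centred on the mean of the melanocyte markers. The median change of all genes was then -0.22 and 0.27. Of the 30 genes, 18 fell and 2 rose with the first of these centrings, and 6 fell and 6 rose with the second. With the melanocyte mean as a covariate 2 genes fell and 0 rose. A term for Xist level (high or low) was also fitted. Only replicate 2 read high in the Bach2-deficient group, so the change in that fit is this array alone against the 5 wild-type arrays. Its fatty acid median was -0.94, against -0.69 in the main fit, and its calls are not counted here. When each of the 10 arrays was left out in turn, 9 genes passed every time, namely Elovl6, Fads1, Fads2, Scd1, Scd2, Fdft1, Sqle, Insig1 and Srebf1.

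**Figure D1:**
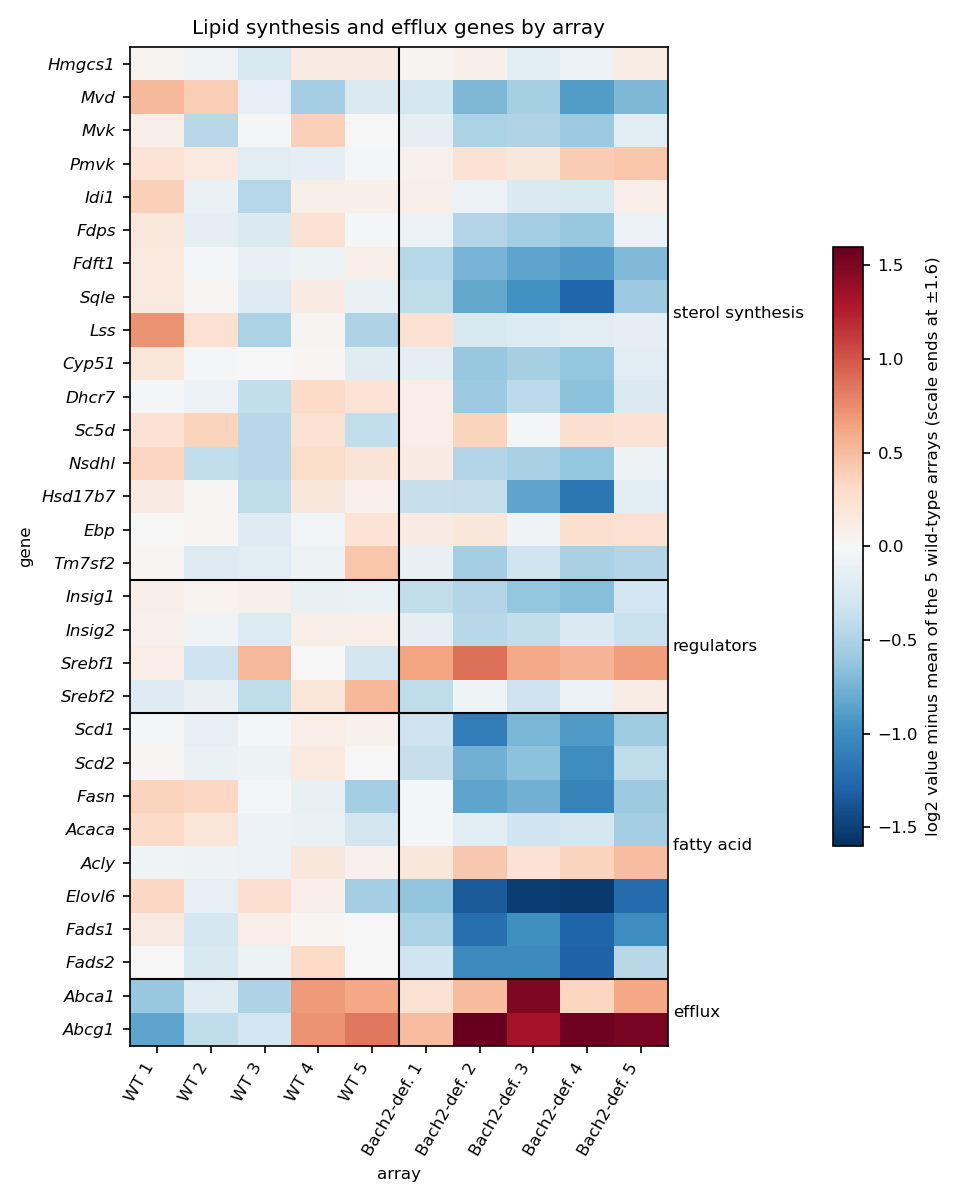
Each row is a gene and each column an array, and the colour gives the log2 value minus the mean of the 5 wild-type arrays, with the scale ending at 1.6 on either side. Elovl6, Fads1, Fads2, Scd1, Scd2, Sqle and Fdft1 are blue on all 5 Bach2-deficient arrays, palest on replicate 1, while Srebf1 and Abcg1 are red on all 5.

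**Figure D2:**
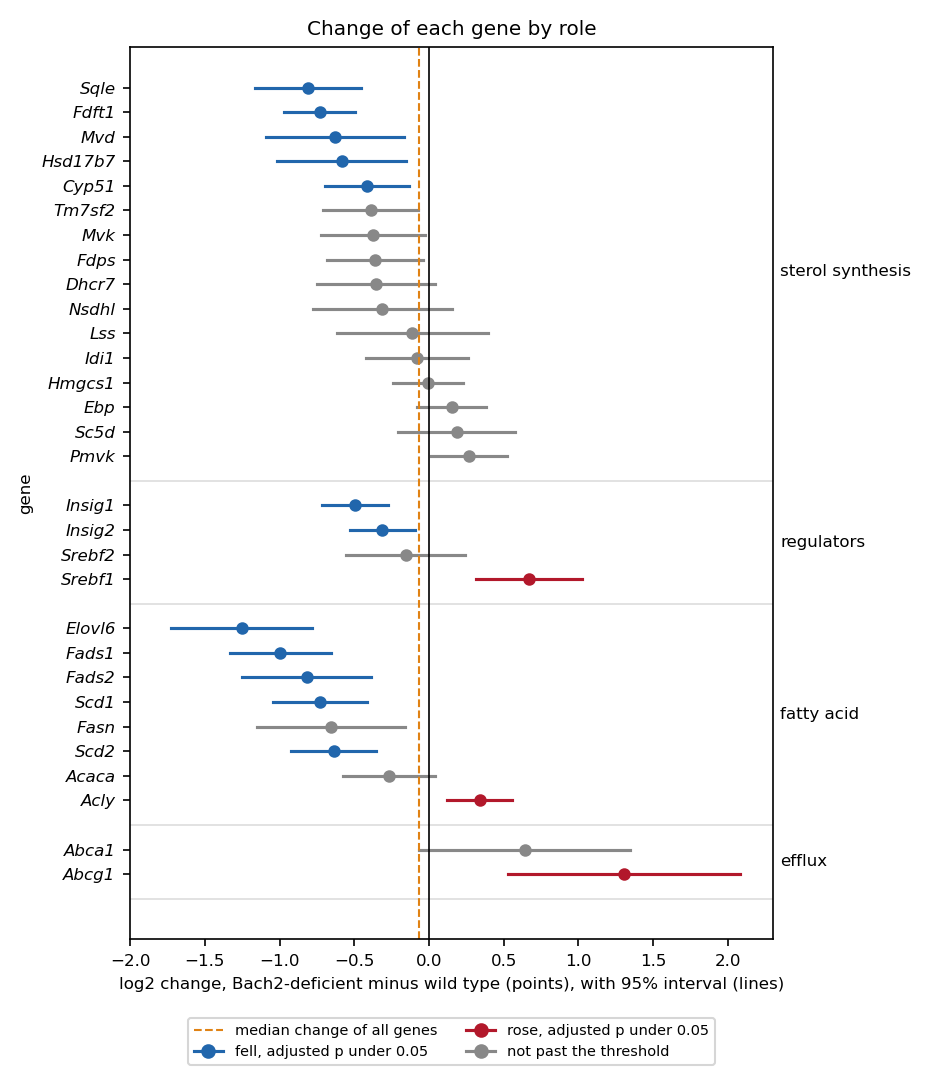
Points give the log2 change of each gene, Bach2-deficient minus wild type, with its 95% interval as a line, sorted within its role; the dashed line marks the median change of all genes at -0.06. Blue genes fell and red genes rose at an adjusted p under 0.05, and the fall of Elovl6 (-1.25) and the rise of Abcg1 (1.31) lie at the ends.

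Because SREBPs act at promoters together with the CCAAT-binding factor NF-Y, the promoters of the listed genes were read for 3 motifs on both strands. These were a sterol regulatory element (TCACNCCAC), the E-box CACGTG and the CCAAT box (CCAAT). RefSeq promoters (GRCm38.p6; 250 bases before and 50 after the start of a transcript) were matched by symbol for 23 of the 30 genes. The CCAAT box was present for 19 of these 23 genes, and in 37.4% of all 32851 promoters (41.1% of 27025 genes). It was present for 5 of the 7 fallen genes in the table and for 14 of the 16 others. The E-box was present for 5 of the 23 genes (Abca1, Dhcr7, Hsd17b7, Insig1 and Sc5d), and in 7.15% of all promoters (8.09% of genes). Those 5 were 2 of the 7 fallen genes and 3 of the 16 others. The sterol regulatory element was found for 1 of the 23, Hmgcs1, and in 1.24% of all promoters (1.44% of genes). A match is a description of the letters, not a sign of binding.

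The 250 bases before the start are shown for Hmgcs1, the gene with the sterol element, for Hsd17b7 and Insig1, the fallen genes with an E-box, and for Elovl6, the gene with the largest fall. Each reads 5′ to 3′ toward the gene, and capitals mark the motifs (CCAAT appears as ATTGG on the opposite strand). Hmgcs1 lies on the plus strand at chr13:119690101-119690350, Hsd17b7 on the minus strand at chr1:169969206-169969455, Insig1 on the plus strand at chr5:28071162-28071411 and Elovl6 on the plus strand at chr3:129532136-129532385.
Hmgcs1: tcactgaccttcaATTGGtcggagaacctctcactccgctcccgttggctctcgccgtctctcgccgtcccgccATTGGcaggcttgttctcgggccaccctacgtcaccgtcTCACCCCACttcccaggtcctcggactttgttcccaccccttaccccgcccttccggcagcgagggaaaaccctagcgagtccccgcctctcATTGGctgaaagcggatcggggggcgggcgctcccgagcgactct
Hsd17b7: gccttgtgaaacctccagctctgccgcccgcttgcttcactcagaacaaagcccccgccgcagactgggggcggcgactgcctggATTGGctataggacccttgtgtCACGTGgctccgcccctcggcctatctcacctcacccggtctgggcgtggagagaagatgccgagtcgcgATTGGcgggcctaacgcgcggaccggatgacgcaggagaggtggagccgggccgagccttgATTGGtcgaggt
Insig1: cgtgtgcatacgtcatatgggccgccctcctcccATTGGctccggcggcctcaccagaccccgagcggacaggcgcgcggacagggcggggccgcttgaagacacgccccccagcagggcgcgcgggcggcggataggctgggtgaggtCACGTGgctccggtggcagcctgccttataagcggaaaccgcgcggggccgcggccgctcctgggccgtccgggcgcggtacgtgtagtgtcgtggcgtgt
Elovl6: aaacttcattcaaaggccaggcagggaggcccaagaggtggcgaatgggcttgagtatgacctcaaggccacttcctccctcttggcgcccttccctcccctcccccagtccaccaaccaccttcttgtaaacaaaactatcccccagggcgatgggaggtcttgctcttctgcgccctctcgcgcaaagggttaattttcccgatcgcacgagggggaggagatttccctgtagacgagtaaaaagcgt
The sterol element of Hmgcs1 begins 137 bases before the start and stands among 3 CCAAT boxes, and the RNA of Hmgcs1 differed by -0.01 between the groups. Hsd17b7 and Insig1, whose E-boxes begin 143 and 101 bases before the start, fell. The Elovl6 stretch holds 0 matches to the 3 motifs, and its RNA fell most of the 30.

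The listed elongase and desaturases of fatty acids fell. Of the 8 fatty acid enzymes 5 fell, 1 rose and 2 did not pass, and the 5 that fell are the elongase and the 4 desaturases of the list. The shares were 62.5% fallen and 12.5% risen, against 12.4% and 16.3% of all genes. Elovl6 encodes the elongase that extends palmitate to stearate. It read 9.36, 8.89, 9.29, 9.11 and 8.48 on wild-type replicates 1 to 5 and 8.40, 7.68, 7.51, 7.49 and 7.80 on Bach2-deficient replicates 1 to 5 (log2). The groups did not overlap, with wild-type replicate 5 and Bach2-deficient replicate 1 closest to each other. The means were 9.03 ± 0.35 and 7.77 ± 0.37 (SD, n = 5 each), a change of -1.25 (SE 0.21, limma adjusted p = 0.00209), or 2.38-fold lower.

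Fads1 and Fads2 encode the front-end desaturases of polyunsaturated fatty acid synthesis. Fads1 read 10.03, 9.62, 10.01, 9.93 and 9.89 in wild type and 9.39, 8.69, 8.91, 8.62 and 8.91 in Bach2-deficient tumors, again without overlap. Its change was -0.99 (SE 0.15, limma adjusted p = 0.00128), which is 1.99-fold lower. It passed in every alternative fit apart from the one with the Xist term, whose calls are not counted. Of the 15 called genes only Fdft1 did so too. Over all 20 alternative fits the change of Fads1 ran from -1.21, with the Xist term, to -0.66. Fads2 read 11.34, 11.09, 11.27, 11.66 and 11.35 in wild type and 11.02, 10.32, 10.33, 10.05 and 10.90 in Bach2-deficient tumors. Bach2-deficient replicates 1 and 5 stood near the lowest wild-type array, and the other 3 lay lower. The change of Fads2 was -0.82 (SE 0.19, limma adjusted p = 0.0110), 1.76-fold lower.

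Scd1 and Scd2 encode stearoyl-CoA desaturases, which put the first double bond into saturated fatty acids. Scd1 was bright and tight in wild type, at 12.46, 12.35, 12.45, 12.58 and 12.55, and read 12.14, 11.37, 11.75, 11.57 and 11.91 in Bach2-deficient tumors. Its SD was 0.09 in wild type and 0.30 in Bach2-deficient tumors, and the groups did not overlap. The change was -0.73 (SE 0.14, limma adjusted p = 0.00403), but with the mean of its probe sets it did not pass (-0.50, adjusted p = 0.0672). Scd2 read 12.82, 12.70, 12.72, 12.96 and 12.81 and 12.43, 12.03, 12.15, 11.81 and 12.39 in the same order, without overlap. It changed by -0.64 (SE 0.13, limma adjusted p = 0.00507), and all 3 of its probe sets lay below 0 (-1.26 to -0.48).

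Of the earlier steps of fatty acid synthesis Acly rose, and Fasn and Acaca did not pass. Fasn, the fatty acid synthase that builds palmitate, read 8.55, 8.53, 8.17, 8.08 and 7.65 in wild type and 8.18, 7.35, 7.43, 7.13 and 7.61 in Bach2-deficient tumors, with overlap through Bach2-deficient replicate 1 and wild-type replicate 5. Its change of -0.66 (SE 0.22) did not pass (limma adjusted p = 0.0508). It passed without wild-type replicate 5 (adjusted p = 0.0223) or Bach2-deficient replicate 1 (0.0105), and in 6 of the other alternatives. Acaca, the acetyl-CoA carboxylase that makes malonyl-CoA, changed by -0.27 (adjusted p = 0.171). Acly, which releases acetyl-CoA from citrate for both pathways, was the fatty acid gene that rose. It read 12.48, 12.46, 12.45, 12.73 and 12.61 in wild type and 12.73, 12.98, 12.78, 12.91 and 13.04 in Bach2-deficient tumors, where Bach2-deficient replicate 1 and wild-type replicate 4 met. The rise was 0.34 (SE 0.10, limma adjusted p = 0.0265), and the call was lost without wild-type replicate 1, 2 or 3 or Bach2-deficient replicate 2, 4 or 5 (adjusted p 0.0539 to 0.0709). It was also lost with median centring (0.18, adjusted p = 0.147) and with the mean of its 6 probe sets (0.26, 0.0787). That mean includes dim probe sets, with wild-type means as low as 2.47. Of the 6, 5 lay above 0, with changes from -0.27 to 0.94, and 2 rose when all single-symbol probe sets were tested.

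**Figure D3:**
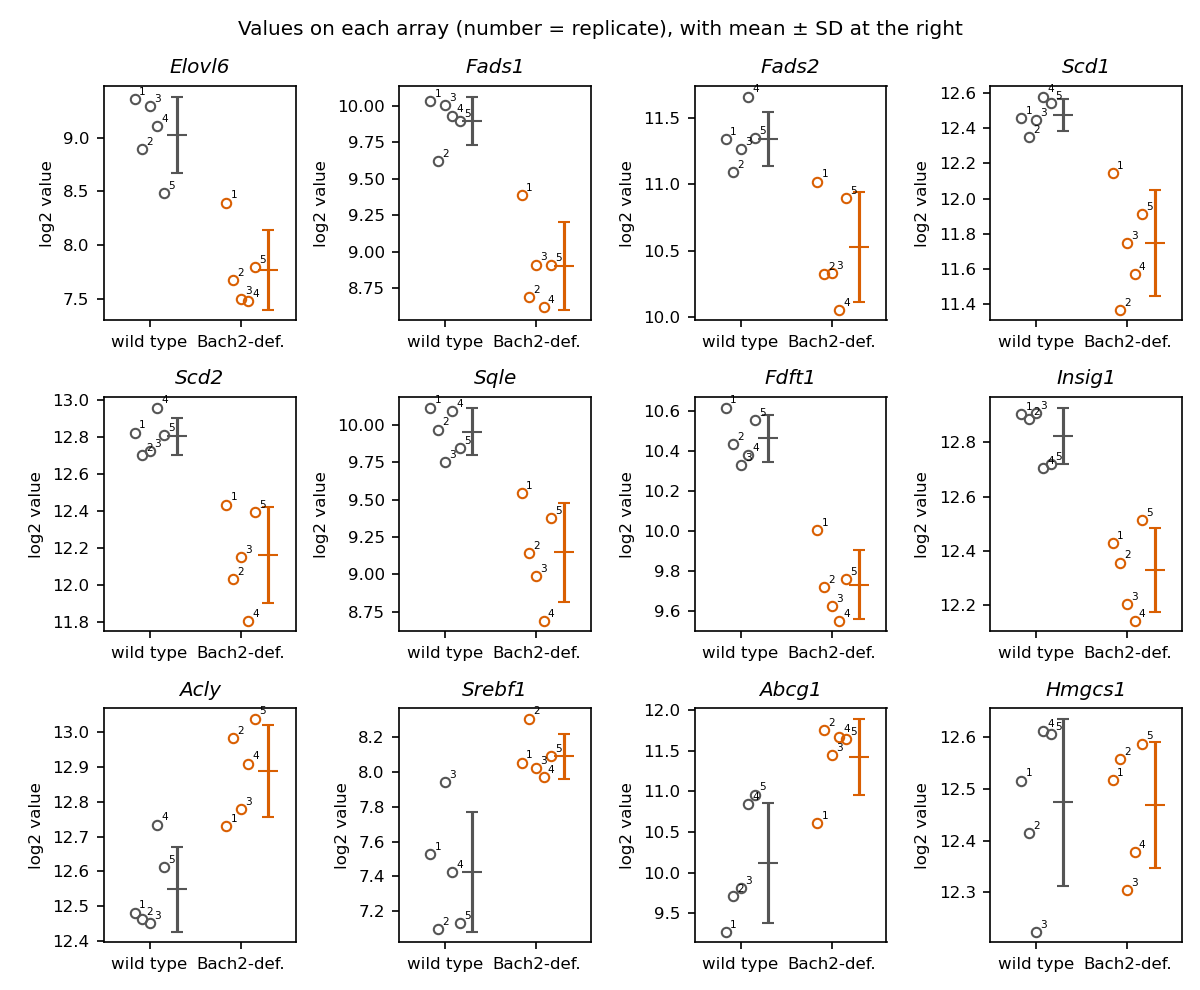
Each panel shows the log2 value of 1 gene on the 5 wild-type and 5 Bach2-deficient arrays, numbered by replicate, with the mean ± SD beside the points; the vertical scales differ and do not start at 0. Elovl6, the Fads and Scd genes, Sqle, Fdft1, Insig1 and Srebf1 show separate groups, Acly and Abcg1 overlap at the edge, and Hmgcs1 overlaps throughout.

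Sterol synthesis enzymes fell in part. Of 16 enzymes 5 fell, 0 rose and 11 did not pass, with changes from -0.81 to 0.27. Those that fell made up 31.2%, against 12.4% of all genes, and 16.3% of all genes rose. The enzymes that fell were Mvd in the mevalonate part, Fdft1 and Sqle at squalene, and Cyp51 and Hsd17b7 among those that trim lanosterol toward cholesterol. Fdft1 encodes squalene synthase, which commits isoprenoids to sterols. It read 10.62, 10.43, 10.33, 10.38 and 10.55 in wild type and 10.01, 9.72, 9.62, 9.55 and 9.76 in Bach2-deficient tumors. The groups stood apart, with a change of -0.73 (SE 0.11, limma adjusted p = 0.00107), 1.66-fold lower. Its 4 probe sets all lay below 0, from -0.73 to -0.06, and those with the smallest changes were dim.

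Sqle encodes squalene epoxidase, a rate-controlling oxygenase that follows squalene synthase. It read 10.12, 9.97, 9.75, 10.09 and 9.84 in wild type and 9.54, 9.14, 8.99, 8.69 and 9.37 in Bach2-deficient tumors, again without overlap. Bach2-deficient replicate 4 was the lowest and replicate 1 the highest of its group. The change was -0.81 (SE 0.16, limma adjusted p = 0.00455), 1.75-fold lower.

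The other calls among sterol enzymes were smaller or less stable. Mvd, the mevalonate diphosphate decarboxylase, read 9.01, 8.87, 8.36, 7.94 and 8.25 in wild type and 8.20, 7.77, 7.96, 7.59 and 7.77 in Bach2-deficient tumors, with overlap. It changed by -0.63 (SE 0.21, limma adjusted p = 0.0453). Cyp51, the lanosterol demethylase, read 11.75, 11.53, 11.57, 11.59 and 11.37 and 11.41, 10.95, 11.03, 10.94 and 11.40 in the same order, and Bach2-deficient replicates 1 and 5 lay above the lowest wild-type array. It changed by -0.41 (SE 0.13, adjusted p = 0.0345), and its other 2 probe sets lay below 0 as well. Hsd17b7, a sterol ketoreductase, read 9.87, 9.76, 9.33, 9.92 and 9.81 and 9.37, 9.35, 8.90, 8.59 and 9.56. Its change was -0.59 (SE 0.19, adjusted p = 0.0457), with overlap through wild-type replicate 3, the lowest of its group.

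Each of these 3 calls was ended by leaving out any of 7 single arrays. With the mean of its probe sets Mvd changed by -0.35 (limma adjusted p = 0.148) and Hsd17b7 by -0.34 (0.194), and neither passed. Mvd was also lost with trended and robust moderation (0.0522) and Hsd17b7 with array weights (0.0568). Mvd was lost without wild-type replicate 1, 2 or 3 or Bach2-deficient replicate 2, 3, 4 or 5 (limma adjusted p 0.0632 to 0.107). Cyp51 was lost without wild-type replicate 1, 2, 3 or 4 or Bach2-deficient replicate 2, 3 or 4 (0.0554 to 0.0894), and with the replicate block. Hsd17b7 was lost without wild-type replicate 1, 2, 4 or 5 or Bach2-deficient replicate 2, 3 or 4 (0.0637 to 0.101). The replicate block here means that arrays of equal number are compared with each other, and it gave Cyp51 an adjusted p of 0.0553.

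The other 11 sterol enzymes did not pass. Hmgcs1, which makes HMG-CoA, read 12.52, 12.41, 12.22, 12.61 and 12.61 in wild type and 12.52, 12.56, 12.30, 12.38 and 12.59 in Bach2-deficient tumors, overlapping throughout. It changed by -0.01 with a 95% interval from -0.24 to 0.23, and the isomerase gene Idi1 by -0.08 with an interval from -0.42 to 0.26. Both intervals leave out a fall as large as that of Sqle. Mvk, the mevalonate kinase (-0.38), Fdps, the farnesyl diphosphate synthase (-0.36), Tm7sf2, a sterol reductase (-0.39), Dhcr7, the last reductase of the pathway (-0.36), and Nsdhl, a decarboxylating dehydrogenase (-0.31), were lower without passing. Mvk passed without wild-type replicate 2 (adjusted p = 0.0294), and Fdps, Dhcr7 and Tm7sf2 passed without Bach2-deficient replicate 1 (0.0486, 0.0479 and 0.0332). Lss, the cyclase that forms lanosterol, changed by -0.11. Its 3 probe sets ran from -1.14 to 0.04, and the lowest passed when all single-symbol probe sets were tested (limma adjusted p = 0.0276). The kinase gene Pmvk (0.27), the desaturase gene Sc5d (0.18) and the isomerase gene Ebp (0.15) lay above 0 without passing.

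Regulators moved in different directions. Insig1, itself induced by SREBPs, and Insig2 fell, Srebf1 rose, and Srebf2 did not pass. Insig1 read 12.91, 12.88, 12.91, 12.70 and 12.72 in wild type and 12.43, 12.36, 12.20, 12.14 and 12.51 in Bach2-deficient tumors, without overlap. The change was -0.50 (SE 0.10, limma adjusted p = 0.00495), 1.41-fold lower. Insig2 read 11.20, 11.08, 10.92, 11.23 and 11.24 and 10.98, 10.70, 10.74, 10.91 and 10.78 in the same order, and only wild-type replicate 3 and Bach2-deficient replicate 1 crossed. It changed by -0.31 (SE 0.10, adjusted p = 0.0360), and by 0.022 when arrays were centred on the melanocyte mean. Its other 2 probe sets fell more (-0.87 and -0.63), and the mean of all 3 changed by -0.60 (adjusted p = 0.00373). For the probe set that stands for Insig2, leaving out 1 array ended the call 8 times of 10 (limma adjusted p 0.0520 to 0.0939). The exceptions were the fits without wild-type replicate 3 or Bach2-deficient replicate 1. The replicate block ended the call of that probe set too (-0.31, limma adjusted p = 0.051).

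Srebf1, whose SREBP-1c form is a liver X receptor target and drives fatty acid genes, rose. It read 7.53, 7.10, 7.94, 7.42 and 7.13 in wild type and 8.05, 8.31, 8.03, 7.97 and 8.09 in Bach2-deficient tumors. The Bach2-deficient arrays were tight, at 8.09 ± 0.13 (SD, n = 5), and wild-type replicate 3 came close to them. The rise was 0.67 (SE 0.16, limma adjusted p = 0.0115), 1.59-fold, and it was lost when quantile normalization was repeated (0.51, adjusted p = 0.0615). Srebf2 changed by -0.15 (adjusted p = 0.543), with its 2 probe sets on either side of 0 (-0.15 and 0.34).

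Of the efflux transporters Abcg1 rose and Abca1 did not pass. Abcg1, which passes cholesterol to lipoprotein particles, read 9.27, 9.71, 9.81, 10.84 and 10.96 in wild type and 10.61, 11.75, 11.45, 11.67 and 11.64 in Bach2-deficient tumors. Wild-type replicates 4 and 5 stood above Bach2-deficient replicate 1, and the other 4 Bach2-deficient arrays lay higher than every wild-type array. The rise was 1.31 (SE 0.35, limma adjusted p = 0.0192), 2.47-fold, and without Bach2-deficient replicate 2 it did not pass (1.22, adjusted p = 0.0514). Abca1, which loads lipid onto apolipoprotein A-I, read 8.81, 9.23, 8.92, 10.10 and 10.04 and 9.66, 9.93, 10.91, 9.76 and 10.04, with wide overlap. Its change of 0.64 (SE 0.32) did not pass (adjusted p = 0.156). The mean of its 3 probe sets, all above 0 (0.64 to 1.12), did pass (0.88, adjusted p = 0.0402).

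Related genes were set against each other within each array, for 5 pairs, with exact 2-sided permutation tests adjusted over the 5. The difference Srebf1 minus Srebf2 was higher in Bach2-deficient tumors by 0.82 (exact p = 0.0317, adjusted 0.139) and Abca1 minus Abcg1 lower by a change of -0.66 (exact p = 0.0556, adjusted 0.139). Neither passed after adjustment. Insig1 minus Insig2 (-0.18), Scd1 minus Scd2 (-0.09) and Fads1 minus Fads2 (-0.17) had adjusted p-values between 0.278 and 0.294. With 5 arrays against 5 the smallest exact p is 0.00794.

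Other genes of these pathways, 84 by name, were measured for 72. Of these 18 rose and 14 fell (25% and 19.4%, against 16.3% and 12.4% of all genes), with a median of 0.08; the other 12 are not analysed here. Of these 32 calls 3 passed with the melanocyte covariate, 19 with centring on the melanocyte mean and 25 with the mean of a gene's probe sets. The Xist term sets Bach2-deficient replicate 2 alone against wild type, and its calls are not counted. Of 4 further sterol synthesis genes Msmo1, a methyl oxidase, fell (-0.61, SE 0.17, limma adjusted p = 0.0226) and 3 did not pass. In the list of uptake and SREBP processing 4 of 12 genes fell (33.3%) and 3 rose (25%), against 12.4% and 16.3% of all genes. The fallen genes were Scap, the escort (-0.39), Mbtps1 and Mbtps2, the proteases that release SREBPs (-0.54 and -0.31), and Stard4, a sterol carrier (-0.45). Mylip, a ubiquitin ligase gene and liver X receptor target, rose by 1.05, the lysosomal sterol exporter gene Npc1 by 0.63 and Erlin1 by 0.69. With the mean of its probe sets Mbtps1 changed by -0.12 (limma adjusted p = 0.815) and Stard4 by -0.030 (0.877), and Scap did not pass. Single arrays ended 6 of these calls, with limma adjusted p-values of at most 0.0913. Msmo1 and Mbtps2 were lost without Bach2-deficient replicate 2, 3 or 4, and Mylip without wild-type replicate 1 or Bach2-deficient replicate 2 or 4. Npc1 and Erlin1 were lost without wild-type replicate 1, 2 or 3 or Bach2-deficient replicate 2, 4 or 5. Scap was lost without wild-type replicate 1, 2, 3 or 5 or Bach2-deficient replicate 2, 3 or 5. Median centring also ended the calls of Npc1 and Erlin1, and repeated quantile normalization that of Npc1. Trended and robust moderation and the replicate block each ended those of Mbtps2 and Scap, and array weights that of Scap.

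Further fatty acid genes fell more often than they rose. Of 20 measured, 7 fell (35%, against 12.4% of all genes) and 1 rose (5%, against 16.3%), with a median of -0.18. Thrsp, a lipogenic regulator, fell by 1.17, Me1, which supplies NADPH, by 0.86, and Acsl3, an acyl-CoA synthetase, by 0.86. Acacb (-0.76), Acss2 (-0.58), Elovl3 (-0.34) and Hacd3 (-0.24) fell too, and Acsl4, which activates arachidonate, rose by 0.46. The other elongases of that list, Elovl1 (0.27), Elovl5 (0.28) and Elovl7 (-1.07, adjusted p = 0.110), and the desaturase gene Scd3 (-0.13) did not pass. Acss2 read 9.70, 9.76, 10.01, 10.20 and 10.19 in wild type and 9.30, 9.55, 9.48, 9.68 and 8.94 in Bach2-deficient tumors. It passed whichever array was left out, but with the mean of its probe sets its log2 change was 0.0050, so no fall remained. The mean of Elovl3 lay under 4.98, the level of the dimmest 30% of genes, so the size of its change is not exact. Single arrays ended the other falls (limma adjusted p of at most 0.100). Thrsp was lost without wild-type replicate 3 or Bach2-deficient replicate 5, and Me1 without wild-type replicate 1 or Bach2-deficient replicate 2 or 4. Acsl3 was lost without any wild-type array but replicate 3 or Bach2-deficient replicate 2, 3 or 4. Acacb and Elovl3 were lost without wild-type replicate 1, 2 or 5 or Bach2-deficient replicate 2, 3, 4 or 5, and Hacd3 without any array but Bach2-deficient replicate 1.

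Oxysterol and liver X receptor genes rose in part. Of 18 measured genes in that list 6 rose (33.3%, against 16.3% of all genes) and 0 fell (12.4% of all genes), with a median of 0.34. Ch25h, the hydroxylase that makes an oxysterol in activated myeloid cells, read 6.82, 6.85, 5.93, 6.39 and 6.17 in wild type and 7.43, 9.21, 8.51, 8.56 and 8.20 in Bach2-deficient tumors. The groups did not overlap, and the rise was 1.95 (SE 0.31, limma adjusted p = 0.00147), 3.87-fold. Cyp27a1, a mitochondrial sterol hydroxylase, read 6.97, 7.39, 7.31, 7.17 and 6.66 and 7.83, 8.63, 8.53, 8.82 and 8.42, a rise of 1.35 (SE 0.20, adjusted p = 0.00110). It passed in every alternative fit apart from the one with the Xist term. Hsd3b7, which modifies oxysterols, rose by 1.40, and Gpr183, a receptor that guides lymphocytes and dendritic cells to oxysterols, by 1.26. Nr1h3, the gene of liver X receptor alpha, rose by 0.94 (5.45 ± 0.31 to 6.40 ± 0.41, SD, n = 5 each). Apoc1 rose by 0.59 from a dim level of 4.64, while Apoe, another target, changed by 0.15 (adjusted p = 0.451). Each of the 6 rises passed whichever array was left out. With the melanocyte covariate Nr1h3 (limma adjusted p = 0.198), Apoc1 (0.106), Ch25h (0.0527) and Gpr183 did not pass. Calls with the Xist term, whose change rests on a single Bach2-deficient array, are not counted.

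Of 18 lipid storage genes 8 rose and 2 fell (44.4% and 11.1%, against 16.3% and 12.4% of all genes), with a median of 0.42. Plin2, which coats lipid droplets, rose by 0.71 and read 11.54, 11.34, 11.75, 11.54 and 11.94 in wild type and 12.29, 12.32, 12.52, 12.29 and 12.23 in Bach2-deficient tumors, without overlap. Dgat2 (1.44) and Dgat1 (0.99), the enzymes that complete triglyceride synthesis, rose, and both were highest on Bach2-deficient replicate 3, at 9.85 and 11.04. Abca1 was highest on the same array. Lpin2 (0.80), the lipases Pnpla2 (0.92) and Lipe (0.94), Pparg (0.80) and Ppard (0.61) rose as well, Lipe from a dim level. Gpam, the acyltransferase that opens glycerolipid synthesis, fell by 0.67 and Ppara by 0.37. Lipe and Ppara did not pass with the mean of their probe sets. The call of Dgat1 was lost with median centring, with repeated quantile normalization and with array weights. Dgat1 did not pass without wild-type replicate 1, 4 or 5 or Bach2-deficient replicate 5, nor Pparg without Bach2-deficient replicate 2 or 4 (limma adjusted p 0.0534 to 0.0614).

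**Figure D4:**
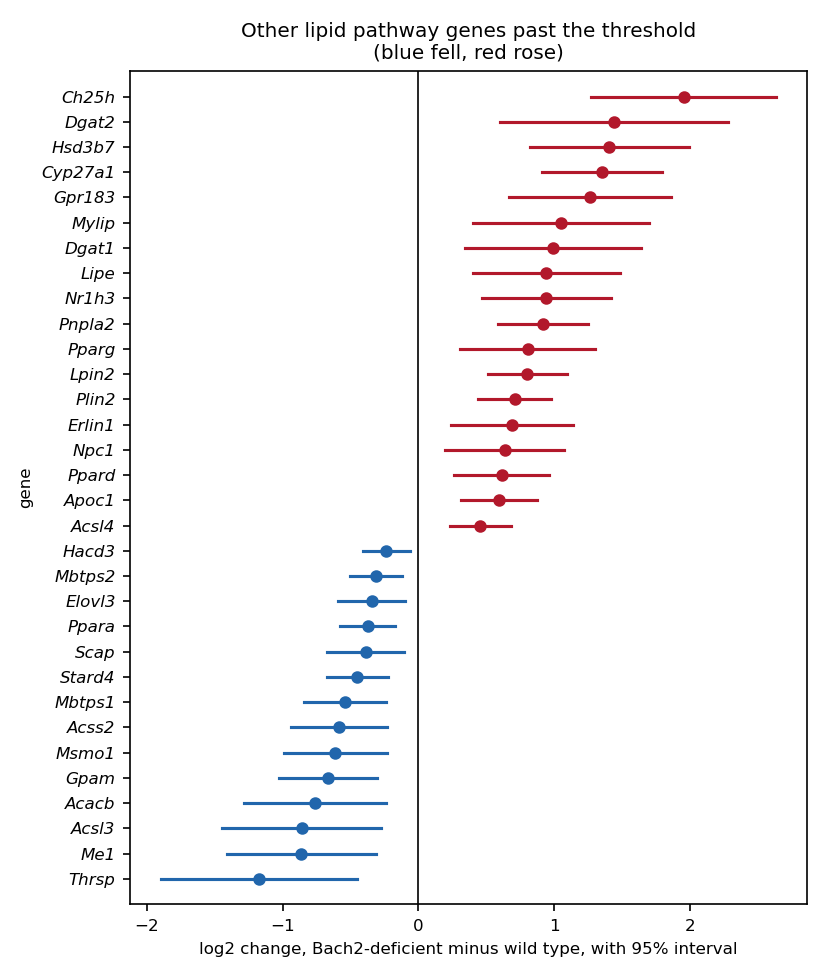
Points show the log2 change (Bach2-deficient minus wild type, with 95% interval) of the 32 called genes of the other pathway lists, blue for the 14 that fell and red for the 18 that rose. Thrsp (-1.17), Me1 and Acsl3 (-0.86 each) lie at the low end, and Ch25h (1.95), Dgat2 (1.44) and Hsd3b7 (1.40) at the high end.

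Markers of other cells moved on the same arrays. Over all genes 12.4% fell and 16.3% rose. Of 19 melanocyte markers 6 fell (31.6%) and 1 rose (5.26%), with a median of -0.29. Their mean ran from 11.13 to 11.47 in wild type and from 10.66 to 11.28 in Bach2-deficient tumors. Of 20 macrophage markers 16 rose (80%, median 1.29), with means from 8.82 to 9.93 and from 10.36 to 11.09. All 16 T cell markers rose (median 3.03), with means from 5.96 to 7.09 and from 8.96 to 10.35. Of 11 red cell markers 4 fell and 1 rose (36.4% and 9.09%, median -0.77). Of 12 endothelial markers 4 fell and 1 rose (33.3% and 8.33%, median -0.47). Of 12 fibroblast markers 3 fell and 1 rose (25% and 8.33%, median -0.31). Apart from the fits that use the melanocyte mean, the part of these markers in the lipid gene results was not tested. Adipose and skin tissue also make lipid. Of 12 adipocyte markers 7 were dim (under 4.98), among them the hormone genes Adipoq (3.64 and 3.51) and Lep (4.09 and 4.12), and 5 were not. The brightest, the fatty acid binding protein gene Fabp4, fell from 10.61 to 9.79 (-0.82, limma adjusted p = 0.0101), and the means of the adipocyte list ran from 5.60 to 5.75 and from 5.48 to 5.74. Of the 12 adipocyte markers Fabp4 alone fell, and 2 rose, Lipe (0.94) and Pparg (0.80). Of 14 skin and sebaceous markers 1 fell, and of 19 cell cycle genes 2 fell. The medians of these lists were -0.05, -0.22 and -0.25. Their fallen shares were 8.33%, 7.14% and 10.5%, each below the 12.4% of all genes.

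Array by array, Bach2-deficient replicate 1 stood nearest to wild type on the fatty acid enzymes. Its mean over the 8 fatty acid enzymes was 10.32, against 9.71 to 10.04 on the other Bach2-deficient arrays and 10.42 to 10.71 in wild type. The same array had the highest melanocyte mean of its group (11.28), the lowest T cell mean (8.96) and the lowest macrophage mean (10.36). It was not nearest on every list. Its red cell mean (4.93) and endothelial mean (5.13) were the lowest of its group, where wild-type arrays read at least 6.17 and 5.47. Without replicate 1, 16 of the 30 genes fell. With arrays centred on the melanocyte mean, an alternative added after the data were seen, Elovl6 (-0.92), Fads1 (-0.66), Fads2 (-0.48), Scd1 (-0.39), Sqle (-0.47) and Fdft1 (-0.40) still passed. Srebf1 (1.00), Acly (0.67), Abcg1 (1.64), Abca1 (0.98), Pmvk (0.60) and Ebp (0.49) were called higher on that scale. With the melanocyte mean as a covariate Fads1 (-0.67, limma adjusted p = 0.0388) and Fdft1 (-0.55, 0.0382) passed. With the Xist term, where the change rests on a single Bach2-deficient array, Scd1 changed by -1.11 and Fads1 by -1.21.

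**Figure D5:**
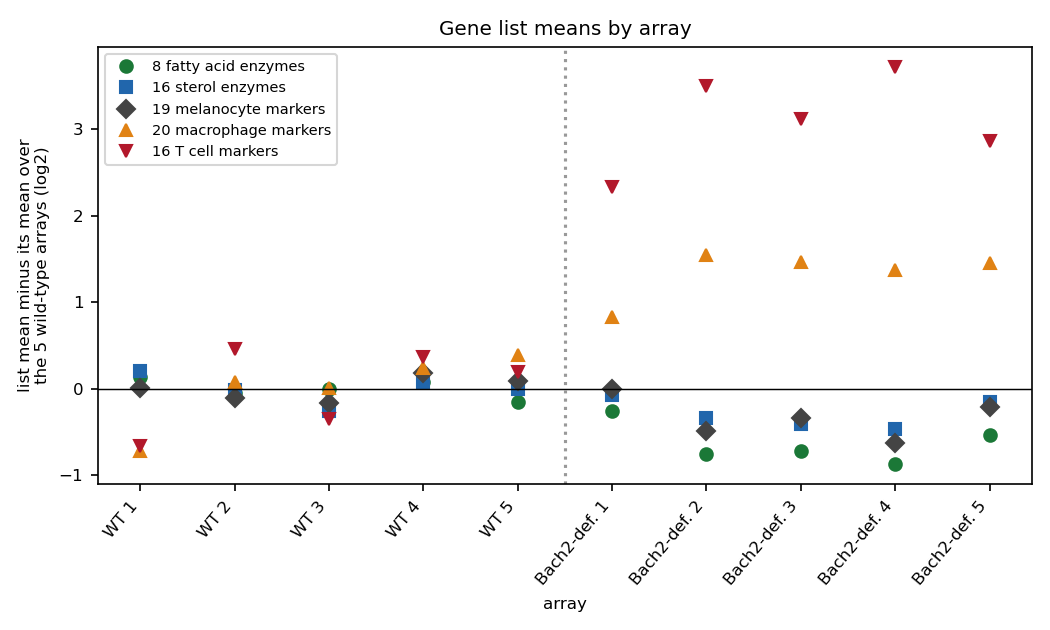
Each point is the mean log2 value of a gene list on 1 array, minus the mean of that list over the 5 wild-type arrays, by array. Within the Bach2-deficient group the fatty acid enzymes lie nearest to 0 on replicate 1, where the melanocyte markers are also near 0 and the T cell and macrophage markers are lowest within the Bach2-deficient group.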

How the data were processed

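Total RNA (6 µg per tumor) of 5 wild-type and 5 Bach2-deficient B16 tumors was hybridised to 1-colour Affymetrix arrays. The authors deposited log2 values made with RMA in Partek, per the submitters' processing notes; RMA equalises the distributions of the arrays, so changes are relative to the other genes, and the labels used here give no versions. Of 45101 probe sets, 64 controls were left out, 34945 carried 1 gene symbol, 932 several and 9160 none. Each gene was represented by its single-symbol probe set with the highest mean over the 10 arrays, which left 18193 genes, and levels of different genes were not compared. The groups were compared with limma 3.58.1 (R 4.3.3; lmFit, eBayes, Benjamini-Hochberg over all genes, threshold 0.05), checked on simulated data. Differences within gene pairs were tested by exact permutation. Of the 30 list genes, those that passed or changed at least 1.5-fold are given on all arrays, with Hmgcs1 added after its values were seen; of the other pathway lists, called genes and some regulators are named, and a few others were chosen after their values were seen. The list members and other gene lists were chosen with earlier results of these data known. Alternatives were other centring, normalization, probe set rule, moderation, array weights, a filter on dim genes, the replicate block, terms for Xist and melanocyte markers, and each array left out.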

Additional observations from a re-analysis of the deposited data

Results flagged for a closer look

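In 60 groups of 5 arrays (30 genes, both groups), 3 had an array far from the others by Dixon's rule, about as many as the 1 in 20 that chance gives. Lss read 8.37 on Bach2-deficient replicate 1, where the next array read 7.98 and the median was 7.96. Hsd17b7 read 9.33 on wild-type replicate 3, where the next array read 9.76 and the median was 9.81. Abcg1 read 10.61 on Bach2-deficient replicate 1, where the next array read 11.45 and the median was 11.64.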

How the results depend on the processing

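Median centring gave 4816 fallen genes, and Ebp and Apoe turned to -0.0074 and -0.011. The Xist term gave 1030 genes rising and 387 falling, 0 and 2 list genes, a fatty acid median of -0.94, and Hmgcs1 at 0.083. The melanocyte covariate gave 797 and 347 genes, 0 and 2 list genes, medians of 0.021 (sterol) and -0.34 (fatty acid), and turned Hmgcs1 (0.13), Idi1 (0.18), Lss (0.073), Dhcr7 (0.12) and Nsdhl (0.20). Centring on the melanocyte mean, chosen after seeing the data, gave 4742 and 714 genes, 6 and 6 list genes, medians of -0.025 and -0.36, and turned Hmgcs1 (0.33), Idi1 (0.25), Lss (0.22), Nsdhl (0.023), Insig2 (0.022), Srebf2 (0.18), Acaca (0.066), Mbtps2 (0.020) and Hacd3 (0.10). The probe set mean turned Hmgcs1 (0.065), Srebf2 (0.091), Acss2 (0.0050), Insig1 minus Insig2 (0.11) and Scd1 minus Scd2 (0.30). The cause of these shifts was not tested. Without 1 array, fallen genes ran from 1388 to 2807, list genes that rose from 1 to 3 and that fell from 8 to 16, Hmgcs1 from -0.068 to 0.036, Idi1 from -0.20 to 0.015, Lss from -0.24 to 0.066, Srebf1 minus Srebf2 from 0.61 to 1.05 and Abca1 minus Abcg1 from -0.87 to -0.53. The 2 pair differences passed only without wild-type replicate 3 and Bach2-deficient replicate 3 (exact permutation, adjusted p = 0.0397 each).

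Deviations of same-numbered arrays had correlations from 0.0062 to 0.32. Differently numbered arrays were not compared, so these values cannot decide if the numbers mark pairs. With the replicate block 3 list genes rose and 11 fell, and 2842 genes rose and 2110 fell. Fasn passed and Cyp51 and Insig2 did not, so 13 of the 15 genes called in the main fit still passed.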
